A study of Bos taurus with 12 samples.

Results

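Cytosolic ribosomal proteins are the protein components of the ribosome in the cytoplasm. Their genes were taken by symbol: every probe set naming a single gene whose symbol begins with RPL or RPS followed by a digit or P, or is RPSA, without the RPS6K kinases, and for each gene the probe set with the largest standard deviation (SD) over the 12 arrays. The rule found 69 genes among the 9155 named on the array, covered by 98 probe sets. Of these genes 40 encode proteins of the large subunit, 23 proteins of the small subunit and 5 paralog-like copies (RPL3L, RPL7L1, RPL26L1, RPS27L and RPS4Y1). The remaining member, RPS19BP1, matched by symbol only: it encodes a nucleolar protein that binds RPS19 and is no part of the ribosome. RPL15P, counted with the large subunit, is annotated as a pseudogene.

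The ribosome is built from ribosomal RNA and one copy of nearly every ribosomal protein, so a cell that makes more ribosomes needs all of these proteins in matched amounts. The small subunit holds the messenger RNA and decodes it, and the large subunit joins the amino acids and releases the chain through an exit tunnel. Most mRNAs of these proteins begin with a terminal oligopyrimidine (TOP) tract, through which the mTOR kinase pathway governs their translation together with that of elongation factors. The epithelium of the rumen renews itself from a basal layer, and making new cells takes protein synthesis.

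Expression was measured in papillae from the ventral sac of the rumen of 4 Holstein dairy cows. All 4 were biopsied on a high forage diet (week 0, called the control in the labels) and again at week 1 and week 3 of a grain challenge, giving 12 Affymetrix arrays and 4 per week. The cows are the same in every week, so without cows left on forage for all weeks diet and calendar time cannot be told apart. The tissue is bulk, so fewer cells of a type and less RNA per cell cannot be told apart either.

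Each deposited log2 value is relative to its probe set, whose median over the 12 arrays is 0. The values compare 1 probe set between arrays and hold no absolute level, so ribosomal protein genes could not be ranked by abundance and the presence of the tissue's markers could not be checked by level. Of the basal epithelial markers listed, 6 of 8 were measured, and their mean ranged from 0.091 to 0.41 at week 0, -0.34 to 0.28 at week 1 and -0.31 to 0.048 at week 3. The 5 measured of 10 suprabasal markers had means of 0.078 to 0.71, -0.49 to 0.29 and -0.47 to -0.17 in the same order, and the 6 measured of 7 macrophage and monocyte markers -0.58 to 0.51, -0.48 to 0.26 and -0.21 to 0.63. Between week 3 and week 0 the median difference was 0.17 over 8 fibroblast markers, 0.28 over 7 lymphocyte markers, -0.047 over 5 smooth muscle markers, -0.0082 over 6 endothelial markers and 0.024 over 5 red blood cell markers. Paired by cow, the basal mean was lower than at week 0 in 4 of 4 cows at week 1 (-0.39) and week 3 (-0.40). So was the suprabasal mean (-0.57 and -0.71). At week 3 the fibroblast and macrophage means were higher than at week 0 in 4 of 4 cows (0.38 and 0.39). The lymphocyte mean was higher in 3 cows, and the endothelial and smooth muscle means in 1 each. No marker of these lists passed an adjusted p of 0.05 in the limma fit, and their part in the values below was not tested. On 3 arrays, week 0 of cows 1 and 2 and week 1 of cow 1, 18 probe sets for RNA spiked into each sample, called hybridization controls, averaged 0.48 to 0.72, against -0.32 to 0.055 on the other 9.

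The ribosomal protein genes moved mainly together from array to array, and their median difference between weekly means was small. No member passed an adjusted p of 0.05 in any comparison of weeks, and the median difference between weeks lay within 0.04 of 0 on the log2 scale. Single cows differed more. Their median change from week 0 ran from -0.29 to 0.11 at week 1 and from -0.27 to 0.090 at week 3, so a larger difference is not excluded. In the limma fit an unadjusted p under 0.05 was found for RPL21 and RPL7 only, in both comparisons with week 1. Of all probe sets 5.15% had such a p at week 1 against week 0 and 4.88% at week 3 against week 1. The second probe set of each gene did not have such a p. The array of cow 2 at week 0 stood highest, and without it the median difference of both grain weeks from week 0 changed sign.

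On single arrays the median of the 69 genes at week 0 was 0.069, 0.18, -0.052 and -0.098 in cows 1 to 4. At week 1 it was 0.11, -0.078, -0.0049 and 0.015, and at week 3 it was 0.040, -0.086, 0.034 and -0.030. Week 0 held both the highest array, that of cow 2, and the lowest, that of cow 4, so the weeks overlapped. Of the 69 genes, 49 had their highest value over the 12 arrays in cow 2 at week 0, and the lowest value fell in cow 4 at week 0 for 21, in cow 2 at week 1 for 17 and in cow 2 at week 3 for 15. At week 3, cow 2 had 67 genes below 0 and cow 1 had 64 above it.

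**Figure D1:**
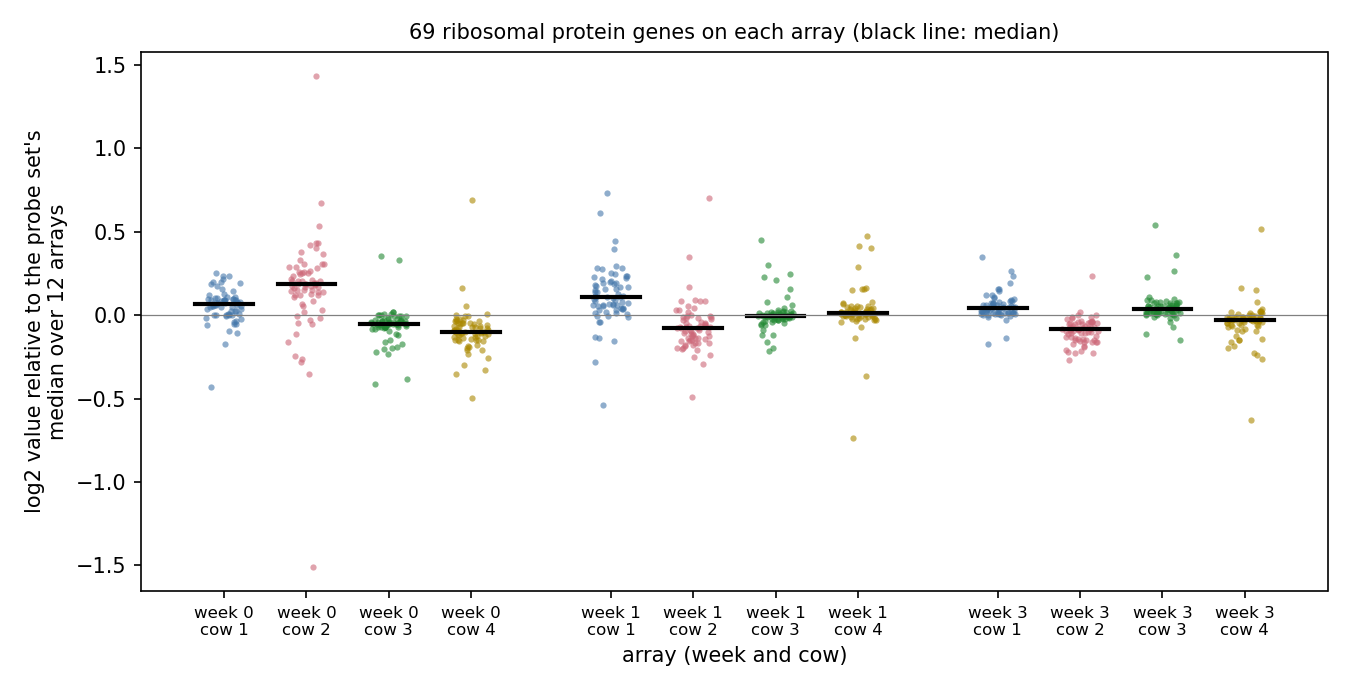
Value of each of the 69 ribosomal protein genes (points, coloured by cow) on each of the 12 arrays, as log2 relative to the median of its probe set over the arrays; black lines are the array medians. The points of one array shift together, from a median of 0.18 in cow 2 at week 0 to -0.098 in cow 4 at week 0.

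The large and small subunits followed each other. The median of the 40 large subunit genes at week 0 was 0.072, 0.16, -0.054 and -0.090 in cows 1 to 4, and that of the 23 small subunit genes was 0.062, 0.21, -0.052 and -0.10. At week 1 the large subunit gave 0.11, -0.087, -0.0075 and 0.017 and the small subunit 0.11, -0.090, -0.0025 and 0.0080. Both subunits were thus highest in the same array, cow 2 at week 0, and next highest in cow 1 at week 1. The hybridization controls at week 0 were 0.49, 0.72, -0.25 and -0.088 in cows 1 to 4, at week 1 0.48, -0.32, 0.055 and -0.10 and at week 3 0.051, -0.057, -0.017 and 0.0083. The 3 arrays with the highest median of the ribosomal protein genes were those with the highest hybridization controls, and the part of array quality in that order was not tested beyond leaving those arrays out.

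**Figure D2:**
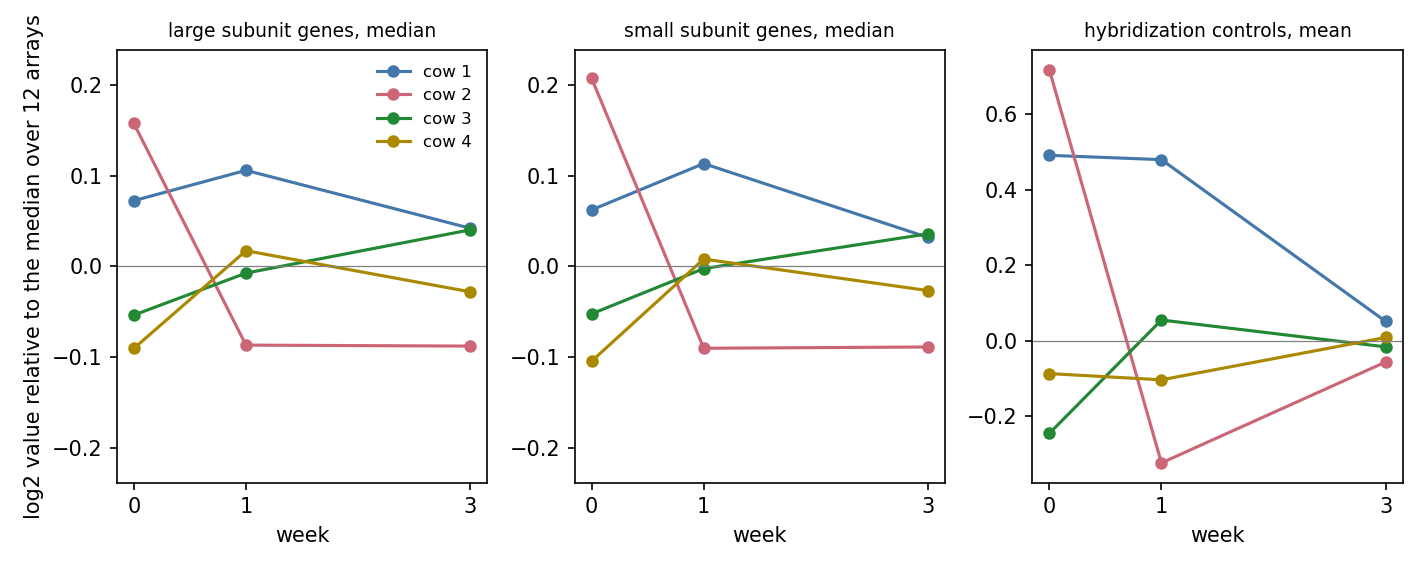
Median log2 value of the 40 large subunit genes and the 23 small subunit genes, and mean of the 18 hybridization control probe sets, against week, with a line for each of the 4 cows; the control panel has its own scale. The subunits follow the same course, and cow 2 at week 0 is the highest array in all panels, with 0.16, 0.21 and 0.72.

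Over the 12 arrays the median correlation (Pearson's r) between pairs of members was 0.686 over 2346 pairs, and 62.4% of pairs had an r above 0.5. Between large and small subunit genes the median r was 0.745. Among 14 other genes with TOP mRNAs, described further on, it was 0.636, with 64.8% of pairs above 0.5. It was 0.390 among 67 mitochondrial ribosomal protein genes, 0.399 among 32 proteasome subunit genes and 0.0058 among all named genes. These are descriptions with no test: all pairs share the same 12 arrays, and with the 3 arrays of high hybridization controls left out the median among the members was 0.534. With each cow's mean taken off it was 0.706.

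RPL34, a large subunit protein, followed the other members most closely, with an r of 0.978 against their mean. Its values were 0.050, 0.19, -0.11 and -0.19 at week 0, 0.068, -0.15, -0.0049 and 0.0049 at week 1 and 0.060, -0.21, 0.055 and -0.095 at week 3 in cows 1 to 4. They were highest in cow 2 at week 0 and lowest in cow 2 at week 3. RPL18 of the large subunit (r 0.976) and RPS10, which lies at the messenger RNA entrance of the small subunit (r 0.972), came next. In all, 43 members had an r above 0.8 with the mean of the others, 12 had 0.5 to 0.8 and 14 had 0.5 or less, 7 of them below 0.

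Those 14 were RPL15P, RPL21, RPL24, RPL32, RPL37, RPL3L, RPL7, RPL7L1, RPL9, RPLP0, RPS15A, RPS19, RPS3 and RPS4Y1. For 12 of them the array holds another probe set of the same gene, and for 11 of the 12 another probe set had an r above 0.5, for 8 above 0.8. RPL9 is an example: its probe set of largest SD had an r of 0.136, and another had 0.977. In those 11 genes the probe set of largest SD departed from the rest of the family and another did not. The exception was RPS19, whose probe sets had -0.254 and -0.255. Of the 98 member probe sets, 20 carry the letter A in the last part of their name and 78 the letter S, a split noticed after the values were seen and whose meaning was not used here. None of the 20 had an r above 0.8 (median 0.033), and 54 of the 78 did (median 0.881).

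The members' median SD over the 12 arrays was 0.114, against 0.159 over all 9155 genes. Of the members' variance, summed over genes so that those of largest SD weigh most, 32.8% lay between cows, 13.4% between weeks and 53.8% remained. These are not the shares of a typical member. Over all named genes the shares, summed in the same way, were 50.6%, 20.6% and 28.8%.

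The genes of smallest SD were RPL27A (0.0468), RPL17 (0.0477), RPS29 (0.0507) and RPL39 (0.0519), of which RPL17 and RPL39 line the exit tunnel. The largest were RPL15P (0.551), RPS12 (0.441), RPL32 (0.387), RPL7 (0.337), RPL7L1 (0.293) and RPS19BP1 (0.243). RPS12, a protein of the small subunit head, owed its spread to a pair of arrays. It was at -0.053, 1.43, -0.00074 and -0.063 at week 0 and 0.61, 0.029, -0.0043 and 0.0021 at week 1, and between -0.044 and 0.013 at week 3. The high values stood on arrays with high hybridization controls, cow 2 at week 0 and cow 1 at week 1, and the other 3 probe sets of RPS12 had at most 0.14 and 0.20 there. RPL15P was lowest, at -1.51, in cow 2 at week 0, where its other probe sets were at 0.21 and 0.060.

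Week 1 was compared with week 0 to ask whether ribosomal protein mRNA differed after the first week of grain. Of the 69 genes 23 were higher and 46 lower at week 1, with a median difference of -0.026, while over all 9155 genes 5798 were higher and the median was 0.024. The interval of each difference (95%) reached, at the median, 0.183 to either side. In limma's moderated test, adjusted with Benjamini and Hochberg's method over 24016 probe sets, 0 members and 0% of all probe sets passed, and the lowest adjusted p of a member was 0.697. An unadjusted p under 0.05 was found for 2 of 69 members, both higher, against 5.15% of all probe sets (3.28% higher and 1.87% lower). With the cow as a block the count stayed at 2 members, against 7.61% of all probe sets, and 0.00833% of probe sets but no member passed the adjusted threshold. The weeks did not overlap for 2 of 69 members, and for 2.69% of all probe sets.

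Among members, RPL21 had the smallest p of this comparison. It is a large subunit protein, mutated in an inherited form of sparse hair in people. Its probe set of largest SD was at -0.18, -0.052, -0.22 and -0.18 at week 0, at 0.23, 0.35, 0.21 and 0.052 at week 1 and at 0.19, -0.22, 0.091 and -0.12 at week 3 in cows 1 to 4. Every week 1 array lay above every week 0 array, and week 3 overlapped both. The difference between week 1 and week 0 was 0.37 ± 0.092 (standard error, SE; n = 4 arrays a week; 95% interval 0.16 to 0.57; limma p 0.00235, adjusted p 0.697), positive in 4 of 4 cows. The second probe set of RPL21 differed by -0.030 ± 0.056 (limma p 0.605). It was at 0.023, 0.17, -0.0060 and -0.083 at week 0 and 0.056, -0.084, -0.0091 and 0.024 at week 1, so that its weeks overlapped.

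RPL7, a large subunit protein that binds ribosomal RNA, also had a probe set on which the weeks did not overlap. It was at -0.057, -0.28, -0.20 and -0.11 at week 0, 0.25, 0.70, 0.23 and 0.057 at week 1 and 0.086, -0.22, 0.23 and -0.63 at week 3. All week 1 arrays were above all week 0 arrays, with cow 2 highest. The difference was 0.47 ± 0.18 (SE, n = 4 a week; interval 0.066 to 0.88; limma p 0.0268, adjusted p 0.763). On the other probe set, whose 12 values lay between -0.066 and 0.059, it was 0.011 ± 0.033. Without cow 2 the difference was 0.36 ± 0.086 for RPL21 and 0.30 ± 0.20 for RPL7, with limma p-values of 0.00370 and 0.180.

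RPS15A, a core protein of the small subunit body, had the next largest difference, 0.30 ± 0.14 (interval -0.011 to 0.62; limma p 0.0572, adjusted p 0.763). Its values were -0.43, 0.26, -0.39 and -0.20 at week 0 and 0.017, -0.011, 0.30 and 0.15 at week 1. Cow 2 at week 0 overlapped the week 1 arrays, and without that array the difference was 0.45 ± 0.098. Its second probe set differed by 0.0042 ± 0.069. For 19 members the array holds more than 1 probe set, and in 11 of them the probe sets of 1 gene did not all have the same sign in this comparison.

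**Figure D3:**
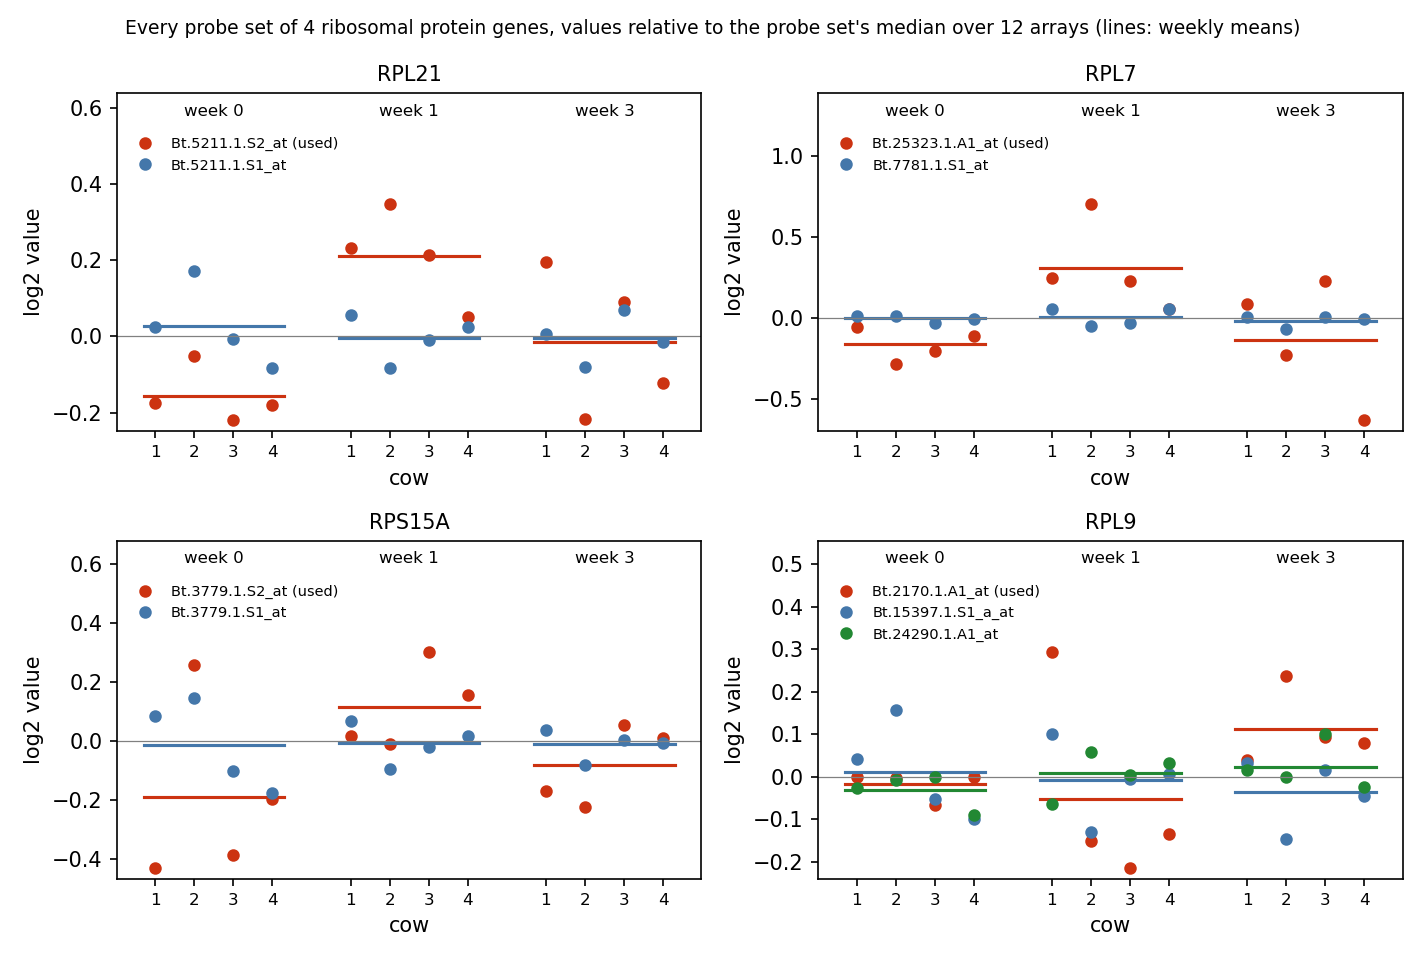
Log2 values of every probe set of RPL21, RPL7, RPS15A and RPL9 on the 12 arrays (x axis: cow within week; lines: weekly means; red: the probe set of largest SD). The red sets of RPL21 and RPL7 are higher at week 1 in 4 of 4 cows, by 0.37 and 0.47 on average, while the other sets of these genes stay between -0.084 and 0.17.

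Among the other large subunit genes RPLP0, which anchors the stalk that recruits elongation factors, differed by 0.17 ± 0.11 (limma p 0.153). RPLP2, an acidic protein of the stalk, differed by -0.041 ± 0.10, and RPL12 at the base of the stalk by -0.17 ± 0.16. RPLP0 was at -0.15, 0.17, 0.021 and 0.42 at week 1 in cows 1 to 4, against -0.10, -0.048, 0.0016 and -0.066 at week 0, and its other probe sets differed by -0.060 and -0.036. RPL12 was higher at week 0 in cow 2 (0.67) than on any other array. Of the 5 measured members of the stalk and of the small RNA-protein particle that RPL5 and RPL11 form with a ribosomal RNA, 1 was higher and 4 were lower, and none had an unadjusted p under 0.05. RPL10, which joins the large subunit late in its maturation, differed by -0.11 ± 0.11, RPL24, at the interface with the small subunit, by -0.11 ± 0.089, and RPL17 by 0.050 ± 0.036. Of 8 exit tunnel genes 4 were higher and 4 lower.

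In the small subunit 7 of 23 genes were higher and 16 lower, with a median of -0.026. RPS3, at the messenger RNA entrance, differed by 0.16 ± 0.11 on 1 probe set and by -0.092 and 0.038 on the others. RPS6, the substrate of the S6 kinases, differed by -0.052 ± 0.099, with -0.0010, 0.28, -0.038 and -0.10 at week 0 and 0.19, -0.24, -0.031 and 0.0048 at week 1. RPSA, which is also known as a laminin receptor, differed by -0.061 ± 0.12, with 0.11, 0.31, -0.20 and -0.035 at week 0 and 0.26, -0.20, -0.16 and 0.038 at week 1. For both genes cow 2 was lower at week 1 and cow 1 higher, and the weeks overlapped. RPS2 and RPS15 differed by -0.059 ± 0.066 and -0.062 ± 0.061. Of the 10 measured proteins of the small subunit head 3 were higher and 7 lower.

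All 5 paralog-like genes had a positive difference at week 1 on the probe set of largest SD, with a median of 0.095 and no unadjusted p under 0.05. RPL7L1 differed by 0.23 ± 0.18 and RPL26L1 by 0.13 ± 0.13, and the genes they resemble by 0.47 (RPL7) and -0.058 (RPL26). RPS27L, which p53 induces, differed by 0.095 ± 0.14 against -0.067 ± 0.093 for RPS27. RPL3L, known from muscle, differed by 0.031 ± 0.044 against -0.045 ± 0.056 for RPL3, which reaches the catalytic centre of the large subunit. RPS4Y1 differed by 0.014 ± 0.13. The other probe sets of these genes did not all share that sign. The second probe set of RPL7L1 differed by 0.16 ± 0.062 (limma p 0.0252, adjusted p 0.763) and the remaining one, which followed the family most closely of the 3 (r 0.651), by -0.023 ± 0.064. Both other probe sets of RPS4Y1 were negative, at -0.051 ± 0.063 and -0.087 ± 0.057. RPS19BP1 had the lowest difference of the members, -0.18 ± 0.17, with 0.013, -1.03, 0.097 and 0.20 in cows 1 to 4, so that cow 2 alone was negative.

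Week 3 was compared with week 0 for the later state under grain. Of the 69 genes 14 were higher and 55 lower, with a median of -0.034 against 0.017 over all genes, of which 5906 were higher. In the limma fit 0 members and 0% of all probe sets passed the adjusted threshold (lowest adjusted p of a member 0.901). No member had an unadjusted p under 0.05, against 3.88% of all probe sets (2.52% higher and 1.36% lower). With the cow as a block 1 member did, RPS3, against 6.12% of all probe sets, and again 0 members and 0% of probe sets passed the adjusted threshold. The weeks did not overlap for 1 of 69 members, RPL9, and for 3.48% of all probe sets.

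RPL9 is a large subunit protein near the base of the stalk. Its probe set of largest SD was at -0.00011, -0.0041, -0.065 and 0.00011 at week 0, 0.29, -0.15, -0.21 and -0.13 at week 1 and 0.040, 0.24, 0.092 and 0.078 at week 3. Its week 3 arrays all lay above its week 0 arrays, while week 1 spanned both. The difference between week 3 and week 0 was 0.13 ± 0.097 (SE, n = 4 a week; limma p 0.211, adjusted p 0.901), and its other probe sets differed by -0.047 and 0.054.

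RPS3 was at -0.094, -0.35, 0.0072 and -0.0072 at week 0 and 0.097, -0.049, 0.070 and 0.15 at week 3, a difference of 0.18 ± 0.11 (limma p 0.126; with the cow as a block limma p 0.0469 and adjusted p 0.807). It was positive in 4 of 4 cows, yet the weeks overlapped. The other probe sets of RPS3 differed by -0.075 ± 0.098, on the set that followed the family at an r of 0.871, and by 0.096 ± 0.12. RPL37, a zinc-binding large subunit protein, differed by 0.21 ± 0.16 and was also higher in 4 of 4 cows. RPL4, whose long loop lines the exit tunnel, was the only member lower in 4 of 4 cows, with changes of -0.035, -0.17, -0.032 and -0.036 and a difference of -0.067 ± 0.041 (limma p 0.131). In this comparison 6 members were higher and 1 lower in 4 of 4 cows. At week 1 against week 0 these counts were 2 and 0, and at week 3 against week 1 they were 1 and 3. The share of all probe sets that did so was not computed, so the counts have no background.

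The lowest differences at week 3 were those of RPS12 (-0.34 ± 0.30), RPL12 (-0.18 ± 0.16) and RPL19 of the exit tunnel (-0.14 ± 0.093). In RPS12 the change in cow 2 was -1.48 and in the other cows 0.0015 to 0.067. RPL8, in the catalytic core of the large subunit, differed by -0.094 ± 0.097 and RPL24 by -0.096 ± 0.089. The highest difference, 0.41 ± 0.38 for RPL15P, had changes of 0.15, 1.34, -0.34 and 0.50 in cows 1 to 4, and the other probe sets of this symbol differed by -0.035 and -0.062. RPL21 differed by 0.14 ± 0.092, RPL7 by 0.027 ± 0.18 and RPL26 by -0.095 ± 0.11.

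The stalk proteins RPLP0 and RPLP2 differed by 0.12 ± 0.11 and -0.073 ± 0.10 at week 3, RPS6 by -0.064 ± 0.099 and RPSA by -0.049 ± 0.12. Of the paralog-like genes 2 were higher and 3 lower: RPL7L1 differed by -0.14 ± 0.18, RPS4Y1 by -0.080 ± 0.13, RPL26L1 by -0.0079 ± 0.13, RPS27L by 0.00086 ± 0.14 and RPL3L by 0.020 ± 0.044. Their like-named genes RPL3 and RPS27 differed by -0.021 ± 0.056 and -0.057 ± 0.093. RPS19BP1 differed by -0.14 ± 0.17. The probe set of RPL7L1 that followed the family most closely was lower at week 3 in 4 of 4 cows, with a difference of -0.16 ± 0.064 (limma p 0.0282, adjusted p 0.901), while the second probe set differed by 0.090 ± 0.062.

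**Figure D4:**
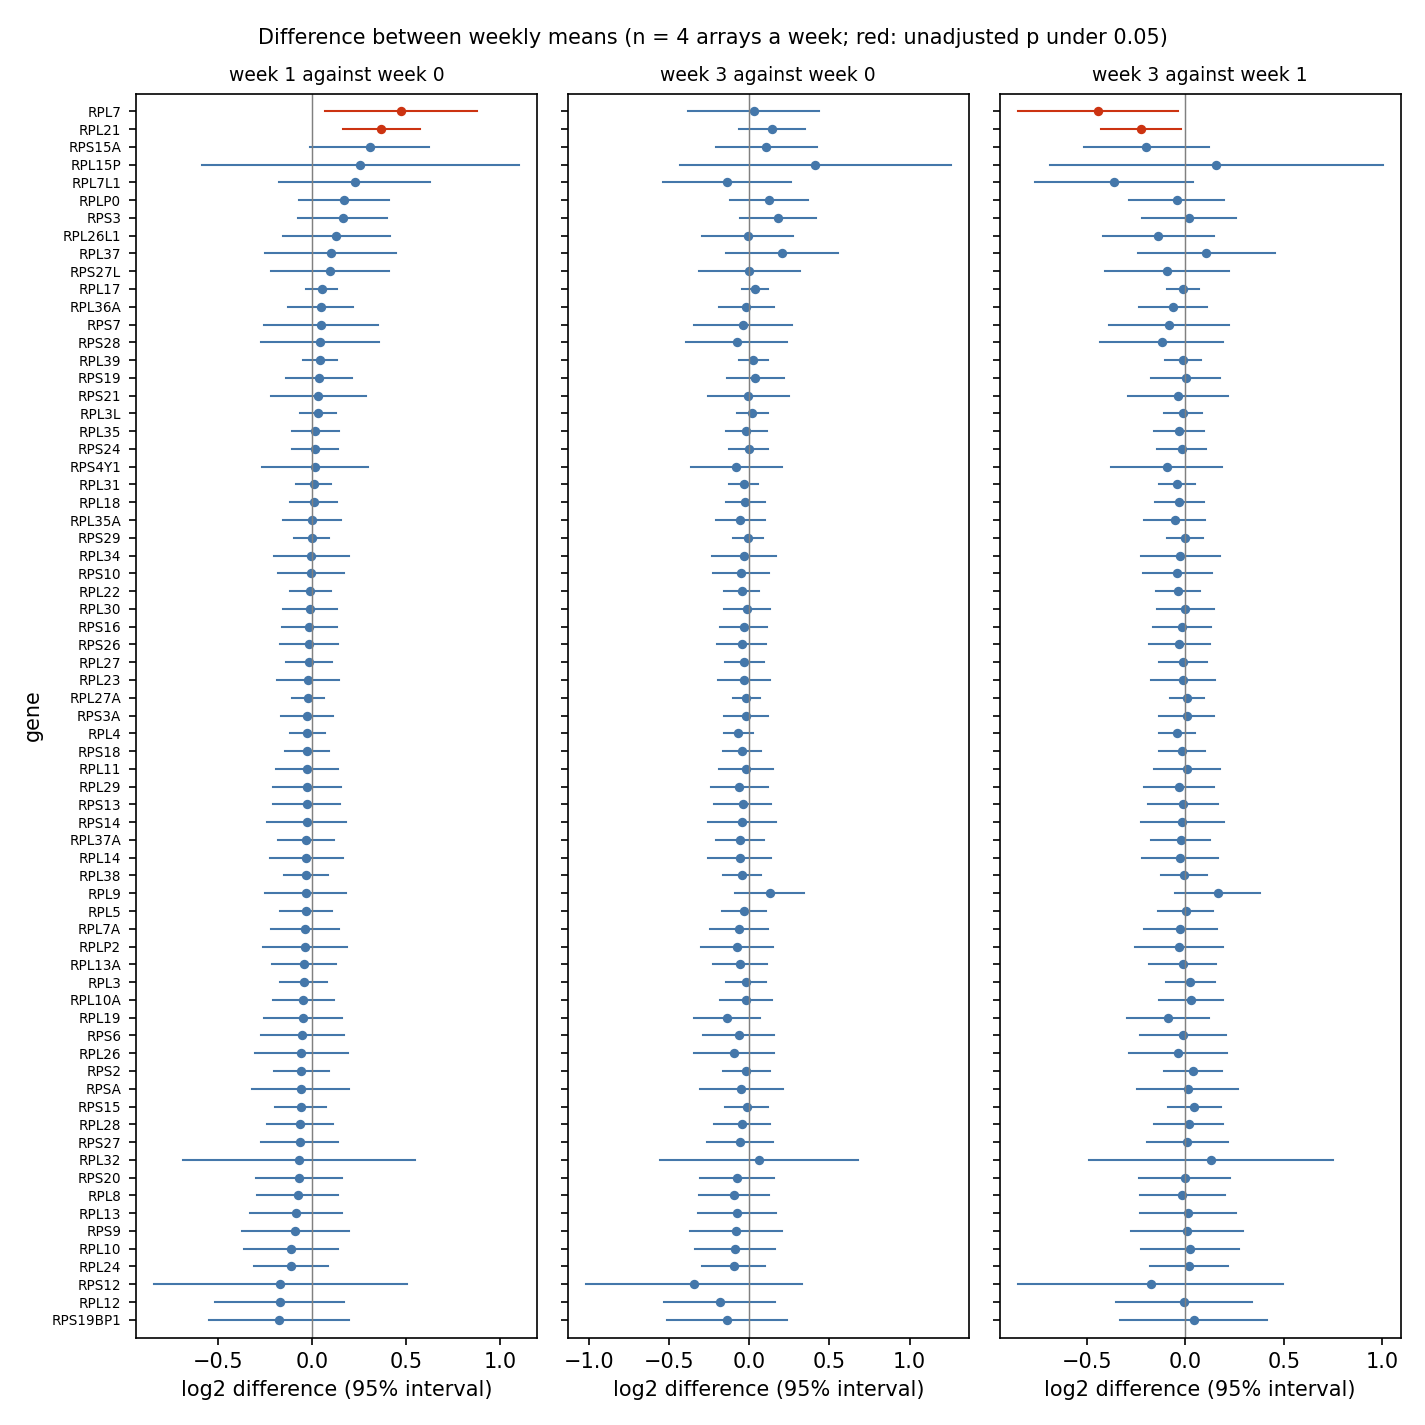
Log2 difference between weekly means (points) with its 95% interval (lines) for the 69 ribosomal protein genes, 4 arrays a week, ordered by the difference between week 1 and week 0; red marks an unadjusted limma p under 0.05. RPL7 and RPL21 are red at week 1 against week 0 (0.47 and 0.37) and at week 3 against week 1 (-0.44 and -0.22), and no gene is red at week 3 against week 0.

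Between week 3 and week 1 the median of the members was -0.013, with 22 higher and 47 lower, against -0.0078 over all genes, of which 5417 of 9155 were lower. In the limma fit 0 members and 0% of probe sets passed the adjusted threshold (lowest adjusted p of a member 0.973). The 2 members with an unadjusted p under 0.05 were again RPL21 and RPL7, both lower, against 4.88% of all probe sets (2.47% higher and 2.41% lower). The comparison shares its week 1 arrays with that of week 1 and week 0. RPL21 differed by -0.22 ± 0.092 (limma p 0.0341, adjusted p 0.973) and was lower in 4 of 4 cows, and its second probe set by -0.0013. RPL7 differed by -0.44 ± 0.18 (limma p 0.0348, adjusted p 0.984), and its second probe set by -0.024. With the cow as a block 3 members had an unadjusted p under 0.05 against 7.58% of all probe sets, 0 members and 0% of probe sets passed the adjusted threshold, and the added member was RPL7L1 at -0.36 ± 0.18 (limma p with the block 0.0212, adjusted p 0.508).

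No member's week 3 arrays all lay on one side of its week 1 arrays, which held for 2.45% of all probe sets. RPS15A was lower at week 3 in 4 of 4 cows, with a difference of -0.20 ± 0.14, and RPS15 was higher in 4 of 4, by 0.045 ± 0.061. RPL9 differed by 0.16 ± 0.097, RPL32 of the large subunit by 0.13 ± 0.28, RPL37 by 0.11 ± 0.16 and RPL31 of the exit tunnel by -0.043 ± 0.042. The other probe sets of RPL32 went the other way, with means of 0.25 and 0.011 at week 1 and -0.045 and -0.012 at week 3. On the probe sets of largest SD all 5 paralog-like genes had a negative difference (median -0.094), and so had all 8 exit tunnel genes (median -0.037). None of these 13 had an unadjusted p under 0.05, and 5417 of 9155 named genes also had a negative difference. RPL26L1 differed by -0.14 ± 0.13, RPS27L by -0.094 ± 0.14, RPS4Y1 by -0.094 ± 0.13 (its other probe sets by 0.027 and 0.063) and RPL3L by -0.011 ± 0.044, beside -0.037 for RPL26, 0.0095 for RPS27 and 0.024 for RPL3. RPS19BP1 differed by 0.042 ± 0.17. RPLP0, RPLP2, RPS6, RPSA and RPS2 differed by -0.044, -0.033, -0.012, 0.011 and 0.041.

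Across all 3 weeks together the limma F test gave an unadjusted p under 0.05 for 2 members, RPL21 (p 0.00754, adjusted p 0.752) and RPL7 (p 0.0464), against 5.01% of all probe sets. At the adjusted threshold 0 members and 0% of probe sets passed. With the cow as a block RPL21 remained (p 0.0138, adjusted p 0.426), against 8.24% of all probe sets, and 0.00416% of probe sets but no member passed the adjusted threshold.

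Within single cows the direction of most members differed from cow to cow. From week 0 to week 1 the median change of the 69 genes was 0.043, -0.29, 0.044 and 0.11 in cows 1 to 4, and the genes that were higher numbered 44, 11, 57 and 62 of 69. Of all named genes 42.4%, 62.2%, 63.0% and 61.6% were higher in the same cows. From week 0 to week 3 it was -0.016, -0.27, 0.090 and 0.058, with 24, 10, 66 and 60 genes higher, against 68.5%, 64.9%, 66.4% and 60.4% of all named genes. Cow 2 had most of its ribosomal protein genes lower in both grain weeks, and cows 3 and 4 had most of theirs higher. From week 1 to week 3 it was -0.064, -0.012, 0.045 and -0.042, with 18, 29, 58 and 11 genes higher, against 61.1%, 37.4%, 63.4% and 42.1% of all named genes. In cow 2 the members were thus near all genes in this last comparison.

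In both comparisons with week 0 the sign of the median rested on cow 2. Without this cow 66 of 69 genes were higher at week 1 (median 0.068) and 64 of 69 at week 3 (median 0.046), and the lowest adjusted p of a member was 1 and 0.960 in the limma fit. In the same fits 69.4% and 73.7% of all probe sets were higher. Without its week 0 array alone 56 and 54 genes were higher, with medians of 0.031 and 0.021, against 72.4% and 72.5% of all probe sets. Leaving out cow 2's week 1 array instead gave a week 1 median of 0.0058. Between week 3 and week 1 the sign stayed without cow 2 (-0.024) and changed without cow 1's week 1 array (0.013).

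Without the 3 arrays of high hybridization controls, 51 of 69 genes had a positive difference at week 1 (median 0.046) and 64 of 69 at week 3 (median 0.066). All probe sets gave 69.8% and 72.3% higher in these fits, so that the count at week 1 lay near the background. Then 7 members had an unadjusted p under 0.05 at week 1, all higher, against 17.7% of all probe sets, and 3 did at week 3 against 5.04%. With the cow also as a block these were 12 members at week 1 against 9.90%, and 5 at week 3 against 5.39%. The 7 were RPS15A (0.44 ± 0.12), RPL21 (0.40 ± 0.13), RPS27L (0.37 ± 0.12), RPL26L1 (0.33 ± 0.12), RPS7 (0.30 ± 0.090), RPL36A (0.20 ± 0.050) and RPL17 (0.066 ± 0.027). At week 3 they were RPL9, RPL17 and RPL36A, at 0.14 ± 0.057, 0.082 ± 0.026 and 0.13 ± 0.047. No member passed the adjusted threshold in these limma fits, in which the lowest adjusted p at week 1 was 0.275 and, with the block, 0.228. Only 2 arrays of week 0 remained in them, those of cows 3 and 4. With the block, cows 1 and 2 thus had no week 0 array to be paired with.

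**Figure D5:**
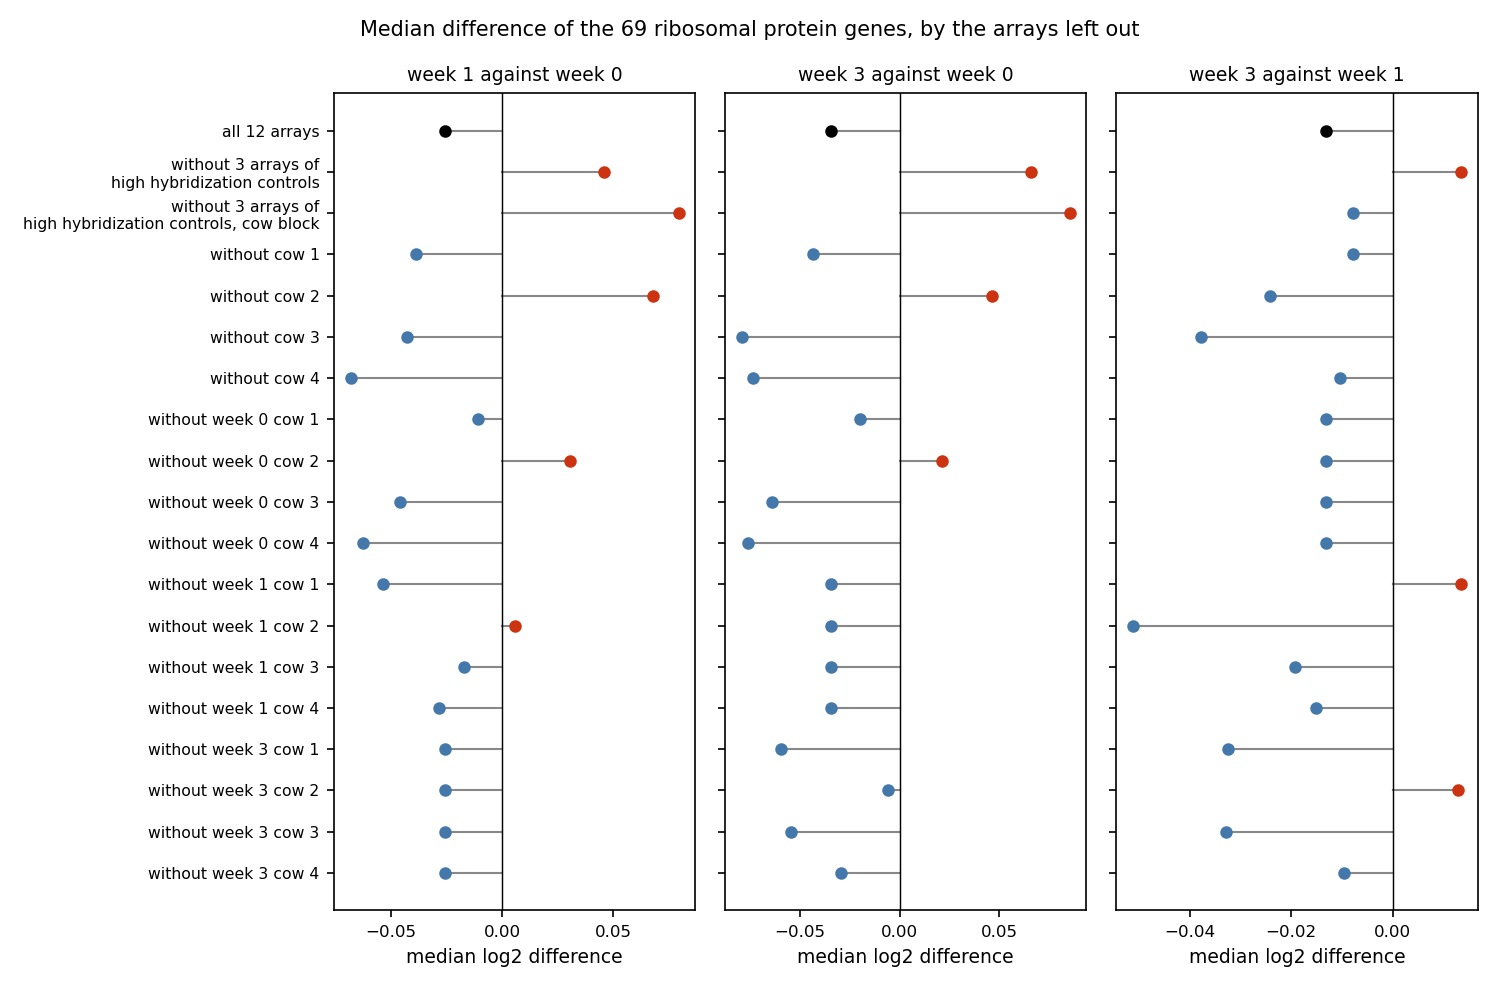
Median log2 difference of the 69 ribosomal protein genes between weeks, with all 12 arrays (black) and with the arrays or cow named on the vertical axis left out (blue below 0, red above 0; each panel has its own scale). Week 1 against week 0 moves from -0.026 to 0.068 without cow 2, and week 3 against week 0 from -0.034 to 0.046.

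Other genes with TOP mRNAs were read beside the family. Of 14 measured of 19 listed, 4 were higher and 10 lower at week 1 than at week 0, 14 of 14 were lower at week 3 than at week 0, and 5 were higher and 9 lower at week 3 than at week 1. None had an unadjusted p under 0.05. The 14 of 14 rested on cow 2, without which 10 were higher and 4 lower at week 3 than at week 0, an alternative added after seeing the data. By cow, the change of the list's median from week 0 to week 3 was -0.035, -0.31, 0.10 and -0.014. EEF1G, a subunit of the elongation factor that brings transfer RNA to the ribosome, differed by -0.052 ± 0.060 at week 1, and TPT1, an abundant growth-related protein, by -0.098 ± 0.12. NACA, which binds new chains as they leave the ribosome, differed by -0.074 ± 0.060 at week 3 against week 0 and -0.098 ± 0.060 against week 1. EIF3E of the initiation machinery differed by -0.11 ± 0.093 at week 3 against week 0, and EEF1B2 by -0.068 ± 0.059 at week 3 against week 1.

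FAU, which encodes the small subunit protein RPS30 fused to a ubiquitin-like protein and which the symbol rule does not reach, was the gene most like the members' mean over the 12 arrays (r 0.974). Its values were 0.080, 0.24, -0.14 and -0.28 at week 0, 0.11, -0.20, 0.026 and -0.0077 at week 1 and 0.045, -0.18, 0.0077 and -0.13 at week 3. Like the members, it was highest in cow 2 at week 0 and lowest in cow 4 at week 0. COX4I1 (r 0.936) and NDUFB10 (r 0.924) of the respiratory chain, MRFAP1L1 (r 0.904) and SSR4 (r 0.895), part of the complex that receives secreted proteins, followed. Of 9086 genes outside the family 57, or 0.627%, had an r above 0.8. Among the TOP mRNAs 5 of 14 did (EEF1D, EEF1G, FAU, EIF3H and NACA), while PABPC1, EIF4B and NAP1L1 had 0.5 or less. Among mitochondrial ribosomal protein genes it was 1 of 67, and among proteasome genes 2 of 32.

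Of the genes that control ribosome production 11 of 16 listed were measured, and none passed the adjusted threshold. RPS6KB2, one of the S6 kinases that phosphorylate RPS6, differed by -0.60 ± 0.16 at week 1 (limma p 0.00334, adjusted p 0.711) and -0.47 ± 0.16 at week 3, both against week 0. With the cow as a block its limma p at week 1 was 0.00621, and the lowest adjusted p of the list was 0.382. RHEB, the small GTPase that activates mTOR, differed by 0.16 ± 0.057 and 0.15 ± 0.057. With an unadjusted p under 0.05 there were 1 gene higher and 1 lower of the 11 at week 1, against 5.15% of all probe sets. At week 3 against week 0 there were 2 higher and 1 lower, against 3.88%. None had such a p at week 3 against week 1, where 4.88% of all probe sets did. Against week 1, RPS6KB1, the other S6 kinase, differed by -0.34 ± 0.21 and TSC1, an inhibitor of the mTOR pathway, by -0.24 ± 0.19.

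Of the initiation factors 25 of 30 listed were measured, and none passed the adjusted threshold. At week 1, EIF4H, which helps to unwind messenger RNA, differed by -0.15 ± 0.050 and EIF4E, the cap-binding protein, by 0.20 ± 0.081. They were the genes of this list with an unadjusted p under 0.05 (1 lower and 1 higher), against 5.15% of all probe sets. At week 3, 1 of the 25 had such a p against week 0 and 1 against week 1, both lower. All probe sets gave 3.88% and 4.88% there. At week 3 against week 0, EIF2B2, a subunit of the factor that recharges eIF2 with GTP, differed by -0.33 ± 0.13 (limma p 0.0299) and EIF3G by -0.17 ± 0.075. With the cow as a block the limma p of EIF2B2 was 0.000553, and the lowest adjusted p of the list was 0.245. At week 3 against week 1, EIF3J differed by -0.16 ± 0.048 (limma p 0.00759, with the block 0.00784) and EIF2B3 by -0.22 ± 0.11. The median difference of the 25 was -0.022, -0.049 and -0.083 in the 3 comparisons.

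The mitochondrial ribosomal proteins, which the nucleus also encodes, were set beside the cytosolic ones. At week 1 against week 0, 44 of 67 were higher (median 0.036) against 23 of 69 cytosolic ones. Of all named genes 63.3% were higher, so the mitochondrial count lay near that share. At week 3 against week 0, 51 of 67 were lower (median -0.073) against 55 of 69, and 3249 of 9155 named genes were. At week 3 against week 1, 51 of 67 were also lower (median -0.096) against 47 of 69, and 5417 of 9155 named genes were. In cows 1 to 4 the median of the mitochondrial genes changed by -0.059, -0.23, 0.27 and 0.13 from week 0 to week 1. From week 0 to week 3 it changed by -0.014, -0.25, -0.037 and 0.086, so cow 2 fell most in both. From week 1 to week 3 it changed by 0.045, -0.026, -0.31 and -0.047. The difference between the families was not tested, and none of the mitochondrial genes passed the adjusted threshold in the limma fit. An unadjusted p under 0.05 was found for 3 of 67 at week 1, all higher, against 5.15% of all probe sets. At week 3 it was found for 0 of 67 against week 0 and for 7 against week 1, all lower. All probe sets gave 3.88% and 4.88% there.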

How the data were processed

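Biotin-labelled cRNA from rumen papillae was hybridised to Affymetrix arrays, per the labels' protocols. The deposited log2 values come from GCRMA, which corrects background and normalizes probe intensities, per the submitters' processing notes (version not stated there). Base 2 was assumed for the logarithm. Neither read depth nor counts apply, and 4 arrays a week limit the precision.

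The probe sets other than 112 controls (24016, of which 13292 named 1 gene, 86 several and 10638 none) were fitted with limma 3.58.1 (lmFit and eBayes, no trend, two-sided) in R 4.3.3, with 1 coefficient for each week and the cow left out of the main model. Adjusted p-values are Benjamini-Hochberg values across these probe sets. The steps were tested on simulated data. Probe sets were named through GEO's platform annotation, which can be old, and all 98 member probe sets matched the ARS-UCD2.0 gene table. Probe, promoter and protein sequences were not used here.

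The replicates are separate animals, and the same 4 cows gave every week. Deviations from the weekly means of 1 cow's arrays correlated at 0.321 to 0.692 (12 pairs), against -0.443 to 0.0627 for different cows and weeks (36 pairs), over the probe sets outside the 40% of lowest SD. A fit blocked by cow was therefore run beside each test.

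The members and gene lists were chosen with earlier results of these data known, so no list was tested as a set. Named in each comparison were the 6 members of smallest p in each direction, any with an adjusted p under 0.05, stalk proteins, RPSA, RPS6, RPS27A (not measured), paralog-like genes with the genes they resemble, and RPS19BP1. For the spread, the 6 members of largest and 4 of smallest SD were named, for likeness the 5 closest other genes, and in each pathway list the 2 genes of smallest p. The members closest to the family's mean, those that stood apart and those that passed in other fits were named after their values were seen. Alternatives tried were the block, quantile normalization, array median centring, array weights, robust variance, a filter on SD, other probe sets of a gene, and leaving out arrays or cows.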

Additional observations from a re-analysis of the deposited data

Results flagged for a closer look

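In 8 of 111 groups (37 genes or array summaries over 3 weeks), 1 of the 4 arrays of a week lay far from the other 3, by Dixon's test at the 95% level. Chance gives about 1 such group in 20 for items chosen beforehand. Many of these genes were chosen by their p or SD in the same values, so that rate is only a rough guide.

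RPS12 of the small subunit head was at 1.43 in cow 2 at week 0, against -0.063 to -0.00074 in the other cows, and at 0.61 in cow 1 at week 1, against -0.0043 to 0.029. RPL9 of the large subunit was lowest in cow 3 at week 0, at -0.065, against -0.0041 to 0.00011, and highest in cow 1 at week 1, at 0.29, against -0.21 to -0.13. At week 3, RPS6 was at -0.15 in cow 2 (others 0.0010 to 0.020) and RPL17 of the exit tunnel at -0.037 in the same cow (others 0.021 to 0.027). RPL26L1 was at 0.16 in cow 1 (others -0.15 to -0.11), and RPS19BP1 at -0.23 in cow 4 (others -0.011 to 0.021), both at week 3.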

How the results depend on the processing

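The median difference of the members was -0.068 to 0.068 for week 1 against week 0, -0.079 to 0.046 for week 3 against week 0 and -0.051 to 0.013 for week 3 against week 1 when 1 array or 1 cow was left out. These shifts were smaller than the spread between cows. Its sign changed for week 1 against week 0 without cow 2, its week 0 array or its week 1 array. It changed for week 3 against week 0 without cow 2 or its week 0 array, and for week 3 against week 1 without cow 1's week 1 array, cow 2's week 3 array or with array weights (0.0079). Without the 3 arrays of high hybridization controls all 3 signs changed, and with the block added the first 2 did.

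The number of members with an unadjusted p under 0.05 was 2, 0, 2 and 2 for week 1 against week 0, week 3 against week 0, week 3 against week 1 and the F test. The same count over 24016 probe sets was 1237, 933, 1172 and 1204. With the cow as a block (paired by cow) the members numbered 2, 1, 3 and 1 and the probe sets 1828, 1469, 1821 and 1980. With quantile normalization the members numbered 1, 1, 1 and 1 and the probe sets 1067, 1381, 1288 and 1310. With array weights the members numbered 5, 3, 4 and 4 and the probe sets 12039, 3600, 8312 and 11350. Leaving out the 3 arrays with high hybridization controls gave 7, 3, 1 and 7 members, against 4252, 1211, 2988 and 2679 probe sets. With the block added there were 12, 5, 3 and 7 members, against 2377, 1294, 2832 and 2576 probe sets. With the probe set of smallest SD the members numbered 1, 0, 0 and 0. With only the weeks compared in the fit, week 3 against week 0 gave 1 member and 1172 probe sets. Week 3 against week 1 then gave 0 members and 1168 probe sets. Without the 40% of lowest SD, week 3 against week 1 gave 1 member and 960 of 14410 probe sets. Array median centring gave 1 member and 975 of 24016 probe sets in the F test. Leaving out 1 array or cow gave 1 to 6, 0 to 2, 0 to 2 and 1 to 4 members. At week 1 against week 0 there were 6 members without week 1 of cow 1, against 10340 of 24016 probe sets. There were 3 without cow 1 or week 0 of cow 2, against 4910 and 1147 probe sets. There was 1 without cow 3, its week 0 array or week 1 of cow 2, against 1036, 1431 and 973 probe sets.

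With array weights RPLP0 (0.36, adjusted p 0.0162), RPS19 (0.16, 0.0177) and RPL3L (0.094, 0.0160) passed the adjusted limma threshold at week 1 against week 0, in a fit that called 9970 of 24016 probe sets. In the F test with array weights RPLP0, RPL9, RPS19 and RPL3L did, beside 6112 of 24016 probe sets. The block called no member. RPL21 at week 1 against week 0 was -0.030 on its probe set of smallest SD. The cause was not tested.

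The median r between members was 0.706 with the cow removed, 0.743 after array median centring, 0.738 with the probe set of smallest SD, 0.686 with the mean of all probe sets, 0.534 with those 3 arrays left out and 0.599 without cow 2's week 0 array, alternatives chosen after seeing the data except the first. The number of other TOP mRNAs lower at week 3 than at week 0 was 14 of 14, and 4 without cow 2. The differences of the named members changed sign in 50 of 617, 72 of 672 and 54 of 590 alternative fits of the 3 comparisons.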
